A study of Rattus norvegicus with 18 samples.

Results

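The genes of the p38 and JNK kinase cascade were taken by symbol from the deposited FPKM table: Map2k3, Map2k4, Map2k6, Map2k7, Mapk14, Mapk11, Mapk12, Mapk8, Mapk9 and Mapkapk2. All 10 were among the table's 17303 rows. Messenger RNA had been sequenced in 18 libraries of cultured ventricular myocytes from Wistar rats at day 3 after birth, in 6 groups of 3. The groups were phenylephrine (PE) at 10 µM, PE with Senexin A at 10 µM, PE with Senexin A at 50 µM, Senexin A alone at 10 µM, Senexin A alone at 50 µM, and Vehicle. All cultures, Vehicle included, had first received AraC, which kills dividing cells, for 48 h and had then been kept without serum for 24 h. Treatment lasted 48 h, with fresh medium and agents at 24 h. The series asks how the transcriptional kinase CDK8, which Senexin A inhibits, bears on the response to PE, which acts on alpha1-adrenergic receptors and makes such myocytes grow.

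The p38 and JNK pathways are stress-activated protein kinase cascades. A MAP kinase kinase phosphorylates the MAP kinase on a threonine and a tyrosine: MKK3 (Map2k3) and MKK6 (Map2k6) act on p38, MKK7 (Map2k7) acts on JNK, and MKK4 (Map2k4) can act on both. p38 then activates MK2 (Mapkapk2), a kinase of small heat shock proteins and of proteins that control mRNA stability, and in heart muscle both pathways are known for their part in hypertrophic growth and stress. Their activity is set by phosphorylation, which was not measured here; the values below are mRNA levels only.

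Levels are given in FPKM (fragment counts corrected for transcript length and library size). Differences are log2 fold changes of FPKM + 1 with their standard error (SE) from limma, fitted over the 10478 rows that reached 1 FPKM in at least 3 libraries. A gene is said to have risen or fallen where its p, adjusted over all those rows by the Benjamini-Hochberg method, was under 0.05. Of the 10 members, 8 passed the filter and were tested. The list was chosen by symbol, with the FPKM changes of these genes in the same 18 libraries already known, so the tests describe the genes and their counts are read only beside the share of all genes called.

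The libraries' FPKM sums ran from 610324 to 910958, the sums in PE (810428 to 853958) lying above those in Vehicle (610324 to 660958). The defining markers of heart muscle were abundant in each library: 5 of 6 listed genes were in the table, and they summed to 10477 to 14004 FPKM in PE and 7315 to 8654 FPKM in Vehicle. Fibroblast markers were present too. All 8 listed were in the table, with Col1a2 at the table's floor in each library of 10 µM alone and of both groups given PE and inhibitor, and they summed to 1242 to 1962 FPKM in PE and 1829 to 3079 FPKM in Vehicle. Endothelial markers summed to under 5 FPKM in every library, and macrophage markers to 5.32 to 40.5 FPKM. In these bulk samples fewer cells of a type and less RNA per cell cannot be told apart.

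Promoter sequences are shown for Map2k6 and Mapkapk2, the members whose group means spanned the widest ranges on the log2 scale. They are from RefSeq on the GRCr8 assembly, each with 250 bases before and 50 after the annotated start, so that the start is at position 251 counted from the 5′ end. Of the 10 members, 9 had an entry, and Mapk9 had none. Map2k6 lies at chr10:95872497-95872796 on the plus strand, and Mapkapk2 at chr13:45112277-45112576 on the minus strand. Capitals mark matches to the motifs searched.
Map2k6: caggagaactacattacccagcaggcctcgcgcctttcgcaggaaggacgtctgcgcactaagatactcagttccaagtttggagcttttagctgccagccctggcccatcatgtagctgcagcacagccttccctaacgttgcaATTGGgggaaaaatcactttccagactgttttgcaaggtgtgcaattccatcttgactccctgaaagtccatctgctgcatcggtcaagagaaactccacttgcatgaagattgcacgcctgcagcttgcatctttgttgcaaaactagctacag
Mapkapk2: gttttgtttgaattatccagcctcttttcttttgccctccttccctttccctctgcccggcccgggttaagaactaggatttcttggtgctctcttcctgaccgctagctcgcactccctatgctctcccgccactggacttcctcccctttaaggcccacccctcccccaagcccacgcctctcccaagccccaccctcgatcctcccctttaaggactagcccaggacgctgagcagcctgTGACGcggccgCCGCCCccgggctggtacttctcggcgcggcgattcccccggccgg
Short motifs were searched on both strands: AP-1 as TGANTCA, the full cyclic AMP element as TGACGTCA, its first letters alone as TGACG (which the full element also holds), the GC box as GGGCGG, the CCAAT box as CCAAT, the E-box as CACGTG, and the ATF4-CHOP composite as TGATGNAA. Map2k6 held 1 match, a CCAAT box on the opposite strand at positions 146 to 150, and 37.5% of the 33469 promoters of this length hold that motif. Mapkapk2 held TGACG at positions 244 to 248, found in 21.2% of promoters, and a GC box on the opposite strand at positions 255 to 260, found in 33.1%. The Map2k6 window was 50.3% G and C and the Mapkapk2 window 62.7%, beside a median of 51.7% and quartiles of 44.7% and 60.3% over all promoters. These matches describe the letters in the window and no more.

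Across the cascade, the 4 genes that moved past the test in any direct comparison were Map2k6, Map2k7, Mapk9 and Mapkapk2. Map2k6 fell with PE and with 50 µM Senexin A alone, while Mapk9 and Mapkapk2 rose with PE and with either dose of the inhibitor. These comparisons share their Vehicle or PE libraries, so they are not independent of each other. Map2k4, Mapk14, Mapk12 and Mapk8 passed in none of the 7 direct comparisons. In PE against Vehicle 3 of the 8 tested members were called, beside 30.6% of all tested genes (17.9% higher and 12.7% lower). Of all genes called there 58.5% were higher, and 47.7% after quantile normalization. With 10 µM alone against Vehicle 2 of 8 were called, beside 16.2% (9.17% higher and 7.01% lower). With 50 µM alone it was 4 of 8, beside 60.7% (30.5% higher and 30.2% lower). On the PE background 2 of 8 were called at 10 µM, beside 17% (9.13% higher and 7.84% lower), and 2 of 8 at 50 µM, beside 56.7% (29.3% higher and 27.4% lower). Read against those shares, the counts by themselves do not set the cascade apart from other genes. The median log2 fold changes of the 8 members were 0.09, -0.07, -0.08, 0.02 and 0.07 in the same 5 comparisons, and those of all tested genes lay between -0.01 and 0.01.

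**Figure D1:**
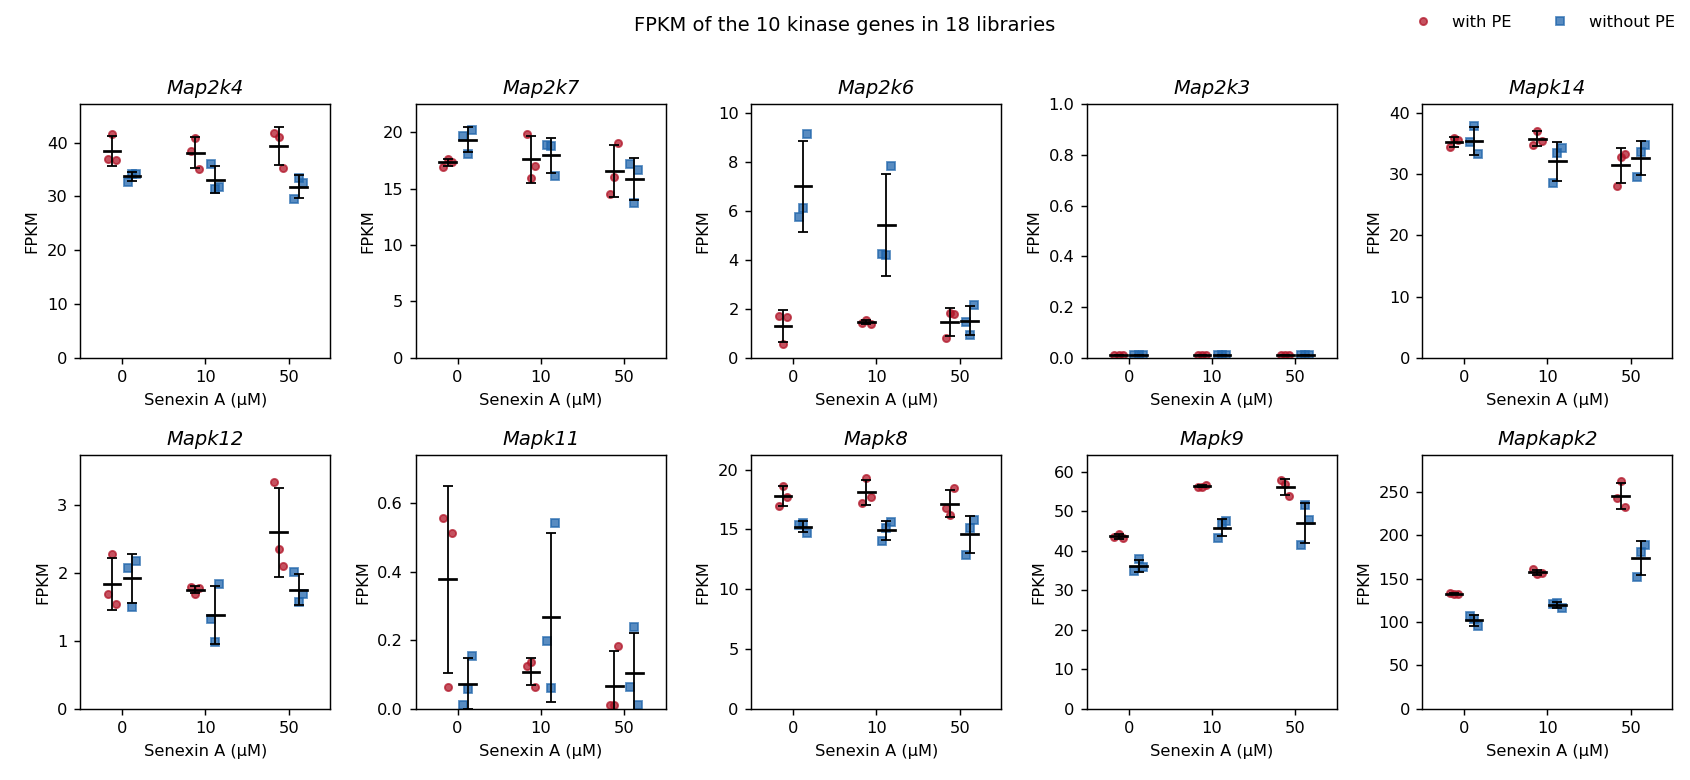
FPKM of the 10 genes in every library (y axes, linear, from 0) by Senexin A concentration (x axes, µM), with PE as red circles and without PE as blue squares; black bars are the mean and SD of 3 libraries. Map2k6 is low in 4 groups and high at 10 µM alone and in Vehicle, Mapkapk2 climbs with dose on both backgrounds, and Map2k3 is at the floor throughout.

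**Figure D2:**
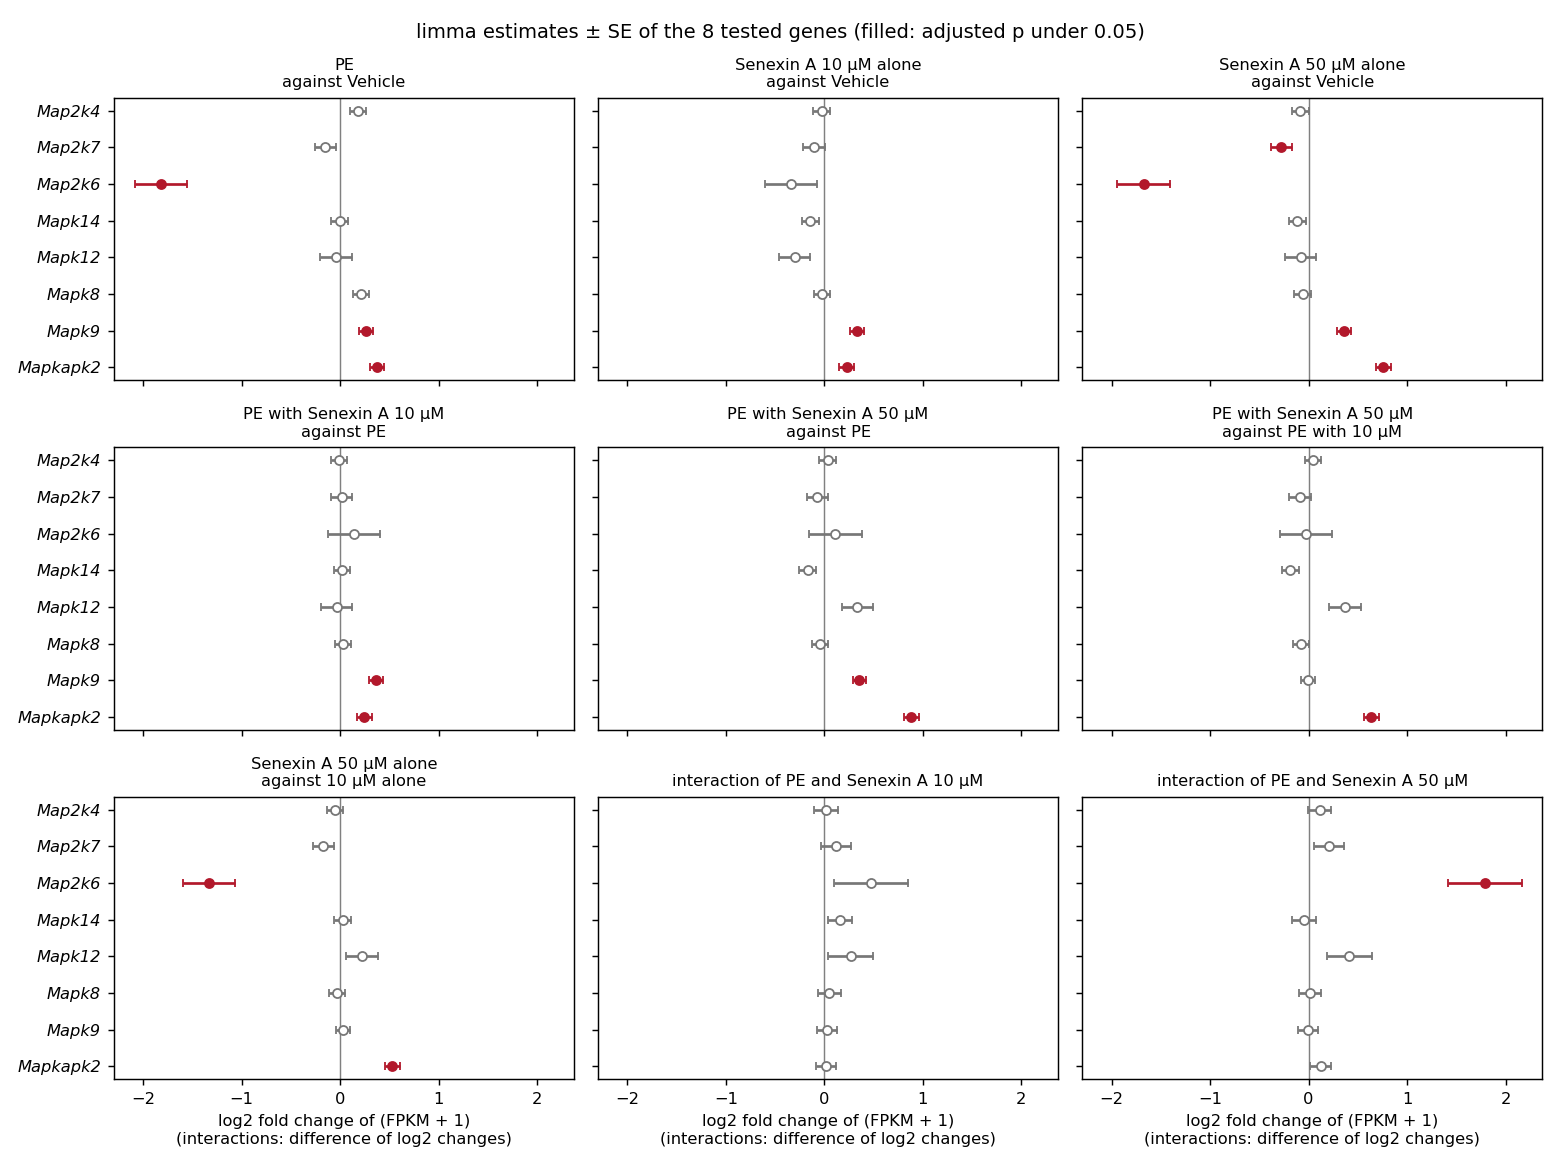
Log2 fold changes of FPKM + 1 (x axes, ± SE) of the 8 tested genes (rows) in the 7 direct comparisons and 2 interactions; filled red points have a limma adjusted p under 0.05. Map2k6 has the longest bars to the left, at -1.82 for PE and -1.67 for 50 µM alone against Vehicle, and the only filled point in the interaction at 50 µM, at 1.79.

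Among the upstream kinases, Map2k6 (rn5 chromosome 10, 98413926 to 98527709 as deposited) varied most. It stood at 1.71, 0.547 and 1.66 FPKM in the PE libraries and at 5.77, 6.14 and 9.17 FPKM in Vehicle. The highest PE value lay below the lowest Vehicle value. The group means were 1.30 ± 0.657 FPKM with PE and 7.03 ± 1.86 FPKM with Vehicle (SD, n = 3 each), a fall of 1.82 on the log2(FPKM + 1) scale (SE 0.27, limma adjusted p = 0.00011). That scale understates low genes: the Vehicle mean was 5.39 times the PE mean in FPKM, and with a pseudocount of 0.1 in place of 1 the log2 fold change was -2.46.

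Senexin A alone had unlike values at the 2 doses for Map2k6. At 10 µM the libraries read 4.25, 4.22 and 7.83 FPKM, overlapping Vehicle (log2 fold change -0.34 ± 0.27, adjusted p = 0.421). At 50 µM they read 1.48, 0.935 and 2.15 FPKM, all under the lowest Vehicle library. The mean there was 1.52 ± 0.608 FPKM, a log2 fold change of -1.67 ± 0.27 against Vehicle (limma adjusted p = 4.97e-05). Against 10 µM alone, 50 µM alone gave -1.33 ± 0.27 (adjusted p = 0.0006), the single fall among the members called in the dose comparison without PE, where 2 of 8 were called beside 50.4% of all genes (25.4% higher and 24.9% lower). The falls against Vehicle held in all 13 alternatives run for each. The filter of 5 FPKM among these adds no support, as Map2k6 passed it only through Vehicle and replicate 3 of 10 µM alone. Without Vehicle replicate 3, the highest library, the falls were -1.64 for PE and -1.49 for 50 µM alone.

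With PE already present, no further change in Map2k6 was called when the inhibitor was added. The libraries of PE with 10 µM read 1.42, 1.56 and 1.39 FPKM, and those of PE with 50 µM read 0.796, 1.83 and 1.77 FPKM. Both sets overlap the PE libraries, with log2 fold changes against PE of 0.14 (adjusted p = 0.766) and 0.11 (adjusted p = 0.741), each with an SE of 0.27. The difference between the responses to 50 µM with and without PE, tested as an interaction, was 1.79 ± 0.37 (limma adjusted p = 0.00965). Over 19 alternative settings its adjusted p ran from 0.000944 to 0.033. Map2k6 was the 1 member of 8 called there, beside 7.01% of all genes (2.24% higher and 4.76% lower). On the log2(FPKM + 1) scale the low PE libraries left no room for a further change of -1.67, the one seen without PE. On that scale the level in PE alone could thus give a positive interaction, and its part in the 1.79 was not tested. With a pseudocount of 0.1 the log2 fold change without PE was -2.18 and the interaction 2.39 (limma adjusted p = 0.0213). At 10 µM the interaction of Map2k6 was 0.48 ± 0.37 (adjusted p = 0.778). None of the 8 members was called at 10 µM with limma, and 0 had an unadjusted p under 0.05, beside 0.305% of all genes called (0.0668% higher and 0.239% lower).

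In order of group mean, PE, PE with 10 µM, PE with 50 µM and 50 µM alone overlapped at the bottom, then came a gap, and 10 µM alone and Vehicle overlapped above it. Replicate 3 had the highest Map2k6 value in 10 µM alone, in 50 µM alone and in Vehicle. It also had the highest summed fibroblast markers in each of the 6 groups, for example 3079 FPKM in Vehicle replicate 3 beside 1829 and 1934 FPKM in the others. None of the 7 tested fibroblast markers was called in PE against Vehicle (0 at an unadjusted p under 0.05), beside 30.6% of all genes. With 50 µM alone against Vehicle 3 of 7 were lower, beside 30.2% of all genes lower. The part of these markers in the Map2k6 values was not tested. The genes whose log2 levels followed Map2k6 most closely over the 18 libraries were Nrep (Pearson r = 0.95), RGD1309534 (r = 0.95) and Deaf1 (r = 0.92); the 18 points share the 6 treatment groups. Nrep averaged 85.8 ± 32.9 FPKM with PE, 240.2 ± 64.5 with 10 µM alone, 99.7 ± 12.6 with 50 µM alone and 242 ± 37.6 with Vehicle (SD, n = 3).

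Map2k4 and Map2k7, which act on JNK, were higher in level, and their group means lay within 1.24 and 1.22 times of each other. Map2k4 read 29.5 to 41.7 FPKM over the 18 libraries, with means of 38.4 ± 2.76 FPKM with PE and 33.7 ± 0.844 FPKM with Vehicle (log2 fold change 0.18 ± 0.08, adjusted p = 0.11). Its 3 groups with PE had the highest means, above all groups without PE, and the libraries of PE with 10 µM lay above those of Vehicle. Map2k7 averaged 15.8 ± 1.83 FPKM with 50 µM alone and 19.3 ± 1.13 FPKM with Vehicle. It passed there (log2 fold change -0.28 ± 0.11, limma adjusted p = 0.036), but not when Vehicle replicate 1 (0.0853), Vehicle replicate 3 (0.106) or replicate 2 of 50 µM alone (0.176) was left out, nor after quantile normalization (0.0595) or with only the 2 compared groups in the model (0.0525). Map2k3, the other kinase of p38, was listed at the table's floor of 0.01 FPKM in all 18 libraries, as were 2766 rows in all, and was not tested. Such a value can be a failed estimate as well as a lack of transcripts, and the table does not tell these apart: Col1a2 is at the floor in whole groups in which the other type I collagen gene, Col1a1, was measured. The level of Map2k3 is therefore unknown.

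As a share of the summed FPKM of the 4 kinase kinase genes, to which Map2k3 adds only its floor value, Map2k6 made up 2.32 ± 1.22% with PE, 9.66 ± 3.80% with 10 µM alone, 3.07 ± 1.12% with 50 µM alone and 11.6 ± 2.45% with Vehicle (SD, n = 3). In all groups Map2k4 had the largest share, with means between 68.6% in PE with 50 µM and 56.2% in Vehicle.

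**Figure D3:**
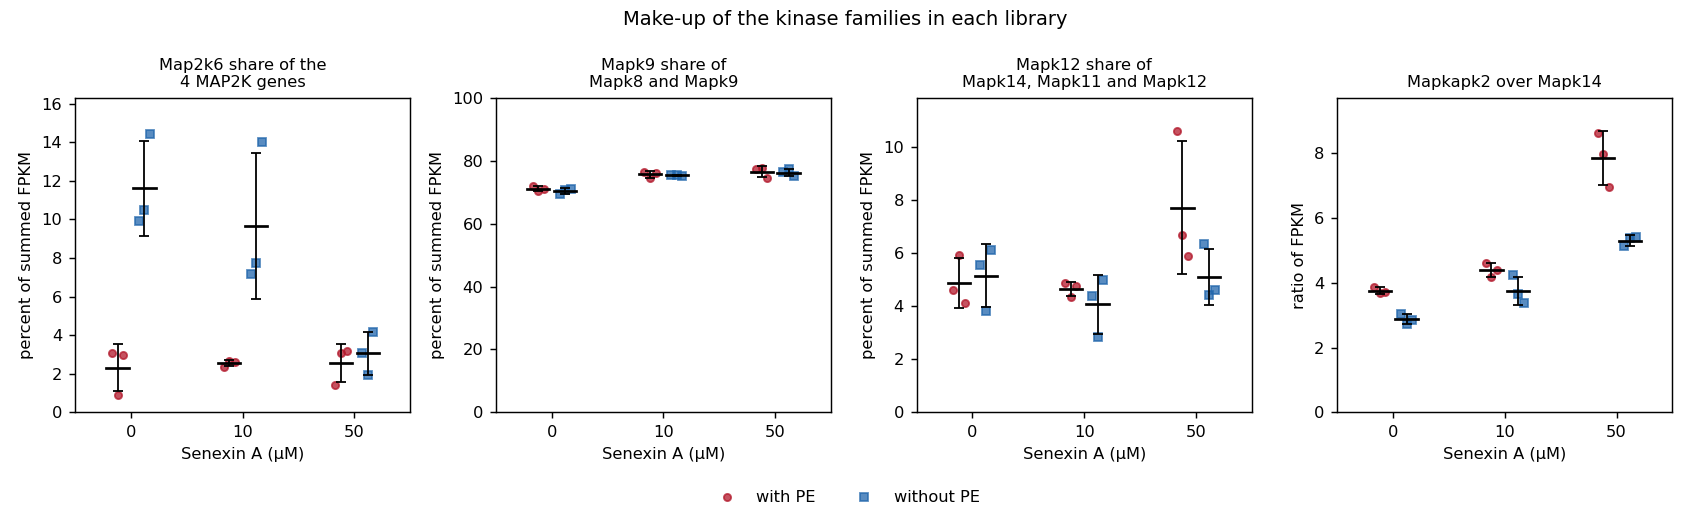
Shares of summed FPKM (percent) of Map2k6 among the 4 MAP2K genes, of Mapk9 in the sum of Mapk8 and Mapk9 and of Mapk12 in the sum of Mapk14, Mapk11 and Mapk12, and the ratio of Mapkapk2 to Mapk14 FPKM, by Senexin A concentration (x axes, µM); points are libraries, bars the mean and SD of 3. The Mapk9 share is 74.4% to 77.8% in all 12 libraries with inhibitor and 69.4% to 72.0% in the 6 without.

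The p38 genes were led by Mapk14 (p38 alpha, the main p38 of heart muscle), which made up a mean of 92.1% to 95.1% of the summed FPKM of Mapk14, Mapk11 and Mapk12 in every group; the low Mapk13 is not in that sum. Mapk14 averaged 35.3 ± 0.835 FPKM with PE and 35.5 ± 2.30 FPKM with Vehicle (SD, n = 3 each; log2 fold change -0.00 ± 0.09, limma adjusted p = 0.974). With PE and 50 µM it averaged 31.4 ± 2.89 FPKM, a log2 fold change of -0.17 ± 0.09 against PE that did not pass (adjusted p = 0.11) but did with quantile normalization (0.0355) and with a replicate block (0.0387). At 50 µM alone against Vehicle it was -0.12 ± 0.09 (limma adjusted p = 0.257, and 0.0363 with quantile normalization). The block also called it against PE with 10 µM (-0.19 ± 0.07, limma adjusted p = 0.0296, beside 0.0958 without the block). All neighbouring groups in its order overlapped.

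Mapk12 (p38 gamma, a form most abundant in muscle) was low, at 0.986 to 3.33 FPKM. It read 3.33, 2.36 and 2.10 FPKM in PE with 50 µM and 1.69, 2.27 and 1.55 FPKM in PE. Replicate 1 of PE with 50 µM stood above all other libraries, and these 2 groups overlapped. The log2 fold change was 0.34 ± 0.16 (limma adjusted p = 0.0835), and the adjusted p was 0.0203 with quantile normalization, 0.0438 without PE replicate 2 and 0.0467 without replicate 3 of PE with 50 µM. The libraries of PE with 10 µM, at 1.79, 1.70 and 1.77 FPKM, lay wholly below those of PE with 50 µM. That dose difference was 0.37 ± 0.16 (limma adjusted p = 0.0736), with an adjusted p of 0.0181 under quantile normalization and 0.0444 without replicate 3 of PE with 50 µM. Without PE, 50 µM against 10 µM gave 0.22 ± 0.16 (limma adjusted p = 0.258, and 0.0192 under quantile normalization). Mapk11 (p38 beta) lay at the floor in 4 libraries, had a median of 0.0937 FPKM and a highest value of 0.557 FPKM, and was not tested. Mapk11 and Mapk12 are neighbours on chromosome 7, and their loci in the table do not overlap.

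Of the JNK genes, Mapk9 (JNK2) rose in every comparison of a treatment with its control, and Mapk8 (JNK1) rose in none. For PE against Vehicle their estimates were close (0.26 ± 0.07 and 0.21 ± 0.08), and whether the 2 genes differ was not tested. Mapk9 (rn5 chromosome 10, 35105632 to 35146138 as deposited) shares its locus with the row of the microRNA gene Mir336, so its values are uncertain to that extent. It read 43.5, 44.3 and 43.2 FPKM in PE and 34.9, 37.9 and 35.8 FPKM in Vehicle. No PE library reached down to a Vehicle one (log2 fold change 0.26 ± 0.07, limma adjusted p = 0.00964).

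Mapk9 also rose with Senexin A, by 0.33 to 0.36 on the log2 scale at each dose and on each background. Mapk9 read 56.2, 56.2 and 56.8 FPKM in PE with 10 µM, and 57.8, 56.8 and 54.0 FPKM in PE with 50 µM. Both groups lay wholly above PE, with log2 fold changes of 0.36 ± 0.07 at 10 µM (limma adjusted p = 0.00271) and 0.36 ± 0.07 at 50 µM (0.00042). Alone, 10 µM gave 43.3, 46.7 and 47.6 FPKM and 50 µM gave 41.5, 51.7 and 47.7 FPKM. These lay above Vehicle too, by 0.33 ± 0.07 (limma adjusted p = 0.00452) and 0.36 ± 0.07 (0.000313). No difference between the doses was found, either with PE (-0.00 ± 0.07, adjusted p = 0.967) or without it (0.03 ± 0.07, adjusted p = 0.747), and neither interaction passed (0.03 ± 0.10 at 10 µM, adjusted p = 0.977; -0.01 ± 0.10 at 50 µM, adjusted p = 0.981). The comparisons at the 2 doses share their controls. Each of these 5 calls held in all 13 alternatives run for it.

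Mapk8 averaged 17.8 ± 0.837 FPKM with PE and 15.2 ± 0.465 FPKM with Vehicle (SD, n = 3 each). That difference was 0.21 ± 0.08 and fell short of the threshold (limma adjusted p = 0.062), though it passed with quantile normalization (0.0396) and with the replicate block (0.0307). With the inhibitor Mapk8 stood at 18.1 ± 1.07 FPKM on PE at 10 µM, 17.2 ± 1.16 on PE at 50 µM, 14.9 ± 0.776 at 10 µM alone and 14.6 ± 1.57 at 50 µM alone, and no inhibitor comparison passed. The share of Mapk9 in the summed FPKM of Mapk8 and Mapk9, which leaves out the low Mapk10, is given as a description, with no test. Mapk9 was 75.7 ± 1.12% of that sum on PE at 10 µM, 76.6 ± 1.81% on PE at 50 µM, 75.5 ± 0.122% at 10 µM alone and 76.3 ± 1.11% at 50 µM alone, against 71.1 ± 0.790% in PE and 70.4 ± 0.884% in Vehicle. The lowest of the 12 libraries with inhibitor, at 74.4%, lay above the highest of the 6 without it, at 72.0%.

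Mapkapk2 (MK2, the kinase downstream of p38; rn5 chromosome 13, 52865896 to 52912481 as deposited) was the most abundant member and its level climbed with dose. It read 133.2, 132 and 132 FPKM in PE and 107.0, 104 and 95.3 FPKM in Vehicle. PE lay wholly above Vehicle (log2 fold change 0.38 ± 0.07, limma adjusted p = 0.00145). With PE the 10 µM libraries read 160.4, 155 and 156 FPKM and the 50 µM libraries 242, 262 and 232 FPKM. The 3 PE groups did not overlap, and each step was upward: 0.25 ± 0.07 for 10 µM against PE (adjusted p = 0.0341), 0.88 ± 0.07 for 50 µM against PE (1.11e-07) and 0.64 ± 0.07 for 50 µM against 10 µM (6.33e-06). In that last comparison it was the 1 member of 8 called, beside 41.2% of all genes (21.3% higher and 19.9% lower).

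Without PE, Mapkapk2 read 121, 122 and 116 FPKM at 10 µM and 151, 181 and 189 FPKM at 50 µM. Each dose lay wholly above Vehicle, by 0.23 ± 0.07 at 10 µM (limma adjusted p = 0.048) and 0.76 ± 0.07 at 50 µM (3.98e-07), and 50 µM lay above 10 µM by 0.53 ± 0.07 (2.8e-05). The 2 rises at 10 µM are the weak ones. Against Vehicle the call was lost whichever library was left out (adjusted p from 0.055 to 0.185), with quantile normalization (0.129), with no filter (0.0526) and with only the 2 compared groups in the model (0.061). Against PE it was lost whichever library was left out (0.0655 to 0.106) and with quantile normalization (0.0631). Neither interaction passed (0.02 ± 0.11 at 10 µM, adjusted p = 0.988; 0.12 ± 0.11 at 50 µM, adjusted p = 0.538).

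The group means of Mapkapk2 ran from 245 ± 15.2 FPKM in PE with 50 µM through 174 ± 19.6 at 50 µM alone, 157 ± 2.96 in PE with 10 µM, 132 ± 0.716 in PE and 119 ± 3.33 at 10 µM alone to 102 ± 6.04 in Vehicle (SD, n = 3 each). Only 50 µM alone and PE with 10 µM overlapped as neighbours in this order. The ratio of Mapkapk2 to Mapk14 FPKM was 7.85 ± 0.841 in PE with 50 µM and 5.31 ± 0.160 at 50 µM alone, against 3.75 ± 0.108 in PE and 2.88 ± 0.147 in Vehicle. Over the 18 libraries the log2 level of Mapkapk2 ran with that of Mapk9 (r = 0.80) and opposite to that of Map2k6 (r = -0.68). Here and for the genes below, the 18 points share the 6 treatment groups. The closest genes outside the cascade were Arl8b (r = 0.97), a small GTPase of lysosome transport, Hspa4l (r = 0.97), a chaperone of the HSP110 family, and Tomm70a (r = 0.97), a receptor for import into mitochondria. Hspa4l averaged 29.7 ± 1.54 FPKM in PE with 50 µM and 14.2 ± 3.03 at 50 µM alone, against 8.07 ± 0.918 in PE and 5.12 ± 0.183 in Vehicle.

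Cell type markers moved in the same comparisons. Of 5 tested heart muscle markers, 3 were higher with PE and 4 at 10 µM alone, both against Vehicle, beside 17.9% and 9.17% of all genes. At 50 µM they went both ways: on PE 1 was higher (Myh6, 1.87 ± 0.69, limma adjusted p = 0.0297) and 1 lower (Actn2, -1.02 ± 0.10, 6.84e-07), and alone 2 were higher, Myh6 among them (1.96 ± 0.69, 0.0215), and 1 lower (Actn2, -0.68 ± 0.10, 3.34e-05). At 50 µM, 3 of 4 smooth muscle markers and 3 of 7 tested fibroblast markers were lower, both on PE and alone. Of all genes, 29.3% were higher and 27.4% lower on PE, and 30.5% and 30.2% alone. The smooth muscle marker not called was Myh11, at -0.45 ± 0.35 on PE (limma adjusted p = 0.29) and -0.80 ± 0.35 alone (0.0568). Smooth muscle markers summed to 1798 to 1953 FPKM in PE with 50 µM against 3786 to 5690 in PE, and to 1774 to 2778 FPKM at 50 µM alone against 4503 to 6088 in Vehicle. Fibroblast markers summed to 622 to 1219 FPKM in PE with 50 µM and 979 to 1322 FPKM at 50 µM alone. Their part in the values of Mapk9, Mapkapk2 and the lists below was not tested.

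The other p38 and JNK kinases listed were Mapkapk3 and Mapkapk5, relatives of MK2, and Mapk10 and Mapk13, whose levels were too low to test. Both tested genes rose at 50 µM, where 29.3% of all genes were higher on PE and 30.5% alone. Mapkapk3 averaged 34.2 ± 1.97 FPKM in PE with 50 µM against 8.99 ± 1.05 in PE (log2 fold change 1.82 ± 0.13, limma adjusted p = 2.13e-08), and 24.9 ± 3.76 FPKM at 50 µM alone against 8.23 ± 0.800 in Vehicle (1.48 ± 0.13, adjusted p = 1.17e-07). Mapkapk5 rose by 0.87 ± 0.07 with 50 µM on PE (adjusted p = 4.94e-08) and by 0.79 ± 0.07 at 50 µM alone (9.55e-08). Neither passed in PE against Vehicle (limma, 0 of 2 also at an unadjusted p under 0.05), where Mapkapk2 did; whether the 3 genes differ in that response was not tested.

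Upstream, 15 MAP3K and MAP4K genes were tested. With PE against Vehicle 1 rose and 3 fell, beside 30.6% of all genes called. Among the falls was Map4k4 (-0.31 ± 0.06, limma adjusted p = 0.00159), a Ste20-family kinase upstream of JNK. With 50 µM alone against Vehicle 2 rose and 7 fell (beside 60.7% of all genes called), and with 50 µM on PE 2 rose and 6 fell (beside 56.7%). Map3k12 (DLK, a JNK pathway kinase best known from neurons) fell in both, by 0.82 ± 0.10 alone (adjusted p = 2.36e-06) and by 0.51 ± 0.10 on PE (0.000302), as did Map3k3, by 0.60 ± 0.10 (7.37e-05) and 0.62 ± 0.10 (6.55e-05). Map3k5 (ASK1, a kinase kinase kinase of both pathways) fell by 0.57 ± 0.12 with 50 µM on PE (0.000595). The list's median log2 fold change was -0.21 at 50 µM alone and -0.25 at 50 µM on PE, beside -0.01 and 0.00 over all tested genes.

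Among 12 scaffolds and adaptors, 3 rose and 4 fell with 50 µM alone against Vehicle (beside 60.7% of all genes called), and 2 rose and 5 fell with 50 µM on PE (beside 56.7%). The Gadd45 genes, stress-induced partners of the upstream kinase MEKK4, went different ways. Gadd45a averaged 498 ± 45.1 FPKM in PE with 50 µM against 98.5 ± 14.4 in PE (log2 fold change 2.33 ± 0.12, limma adjusted p = 9.29e-10), and 531 ± 54.9 FPKM at 50 µM alone against 51.8 ± 3.34 in Vehicle (3.33 ± 0.12, adjusted p = 2.52e-11). Gadd45b fell, by 1.11 ± 0.13 on PE (3.65e-06) and by 1.34 ± 0.13 alone (4.28e-07). With PE against Vehicle 2 of the 12 rose and 2 fell, beside 30.6% of all genes called. The rises were Gadd45g by 1.04 ± 0.12 and Gadd45a by 0.90 ± 0.12 (limma adjusted p = 1.34e-05 and 3.91e-05). Mapk8ip3 (JIP3), a JNK scaffold of vesicle transport, rose by 0.93 ± 0.08 with 50 µM on PE (1.02e-07).

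**Figure D4:**
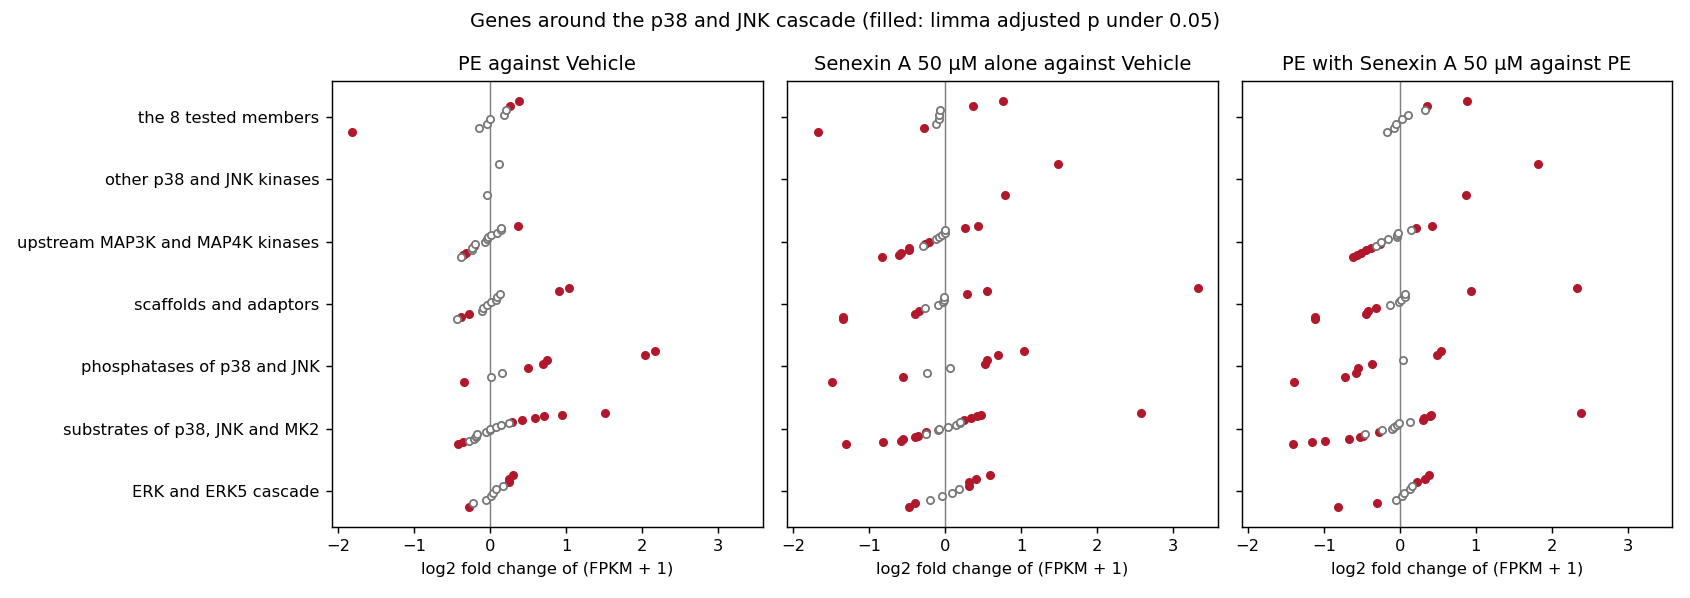
Log2 fold changes of FPKM + 1 (x axes) of the tested genes in each list around the cascade (rows) in 3 comparisons; each point is a gene, filled red where the limma adjusted p was under 0.05. With PE, 5 of 8 phosphatases are filled to the right; the point farthest right is Gadd45a at 50 µM alone, at 3.33, and Ddit3 at 50 µM on PE, at 2.39.

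The 8 phosphatases that remove phosphate from p38 and JNK had the highest list median with PE: 5 rose and 1 fell against Vehicle, with a median log2 fold change of 0.60 beside -0.01 over all genes. Dusp4 rose by 2.17 ± 0.21 (limma adjusted p = 2.65e-06) and Dusp8 by 2.04 ± 0.19 (1.77e-06); both are dual-specificity phosphatases. With 50 µM on PE 2 rose and 5 fell, and with 50 µM alone 4 rose and 2 fell; the shares of all genes called in these 3 comparisons were 30.6%, 56.7% and 60.7%. Dusp1, an early-response phosphatase of both kinases, averaged 20.2 ± 2.08 FPKM in PE with 50 µM against 54.8 ± 9.70 in PE (-1.39 ± 0.14, adjusted p = 6.17e-07), and 18.7 ± 3.67 FPKM at 50 µM alone against 53.8 ± 5.54 in Vehicle (-1.49 ± 0.14, adjusted p = 2.46e-07). Dusp8 rose with 50 µM alone against Vehicle (1.04 ± 0.19, adjusted p = 0.00021), and its interaction at 50 µM was -1.60 ± 0.27 (adjusted p = 0.00289).

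Of 19 genes for substrates of p38, JNK or MK2, 6 rose and 2 fell with PE, 5 rose and 7 fell with 50 µM alone against Vehicle, and 5 rose and 7 fell with 50 µM on PE, beside 30.6%, 60.7% and 56.7% of all genes called. Jun, the transcription factor for which JNK is named, averaged 29.6 ± 2.85 FPKM on PE at 10 µM and 21.4 ± 3.50 on PE at 50 µM, against 48.9 ± 8.59 in PE (log2 fold changes -0.70 ± 0.14, limma adjusted p = 0.00313, and -1.15 ± 0.14, 3.59e-06). With PE alone Jun rose by 0.59 ± 0.14 against Vehicle (0.00416). Jun was also lower at 50 µM alone against Vehicle, with log2 fold changes of -0.95 to -0.72 over 13 alternatives (limma adjusted p at most 0.000849). No interaction of Jun passed. Hspb1, the small heat shock protein phosphorylated by MK2, averaged 1035 ± 70.6 FPKM with PE and 536 ± 53.4 FPKM with Vehicle (0.95 ± 0.10, adjusted p = 4.49e-06). Ddit3 (CHOP, a stress transcription factor and p38 substrate) averaged 292 ± 41.7 FPKM in PE with 50 µM against 55.0 ± 5.19 in PE (2.39 ± 0.17, adjusted p = 2.54e-08), and Stmn1 (stathmin, a microtubule protein) fell by 1.40 ± 0.11 in the same comparison (4.94e-08).

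The ERK and ERK5 cascade, the sister MAP kinase pathway, had 10 tested genes. With PE 3 rose and 1 fell (beside 30.6% of all genes called), and with 50 µM alone 4 rose and 2 fell (beside 60.7%), among them Map2k2 (MEK2) at 148 ± 4.75 FPKM at 50 µM alone against 97.9 ± 2.19 in Vehicle (0.59 ± 0.06, limma adjusted p = 3.82e-07). With 50 µM on PE 3 rose and 2 fell (beside 56.7%), with Rps6ka3 (RSK2, a kinase activated by ERK) down by 0.82 ± 0.10 (3.39e-06).

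At 10 µM the list counts stand beside 16.2% of all genes called alone and 17% on PE. Alone against Vehicle, 3 scaffolds rose and 1 fell, 1 substrate gene rose and 3 fell, and 2 genes fell in each of the MAP3K and MAP4K, phosphatase and ERK lists, while Mapkapk3 and Mapkapk5 did not pass (limma, 0 of 2 also at an unadjusted p under 0.05). On PE, Mapkapk3 rose by 0.92 ± 0.13 (limma adjusted p = 0.000297), as did Mapkapk5 by 0.22 ± 0.07 (0.0386), a call lost in 6 of 13 alternatives. Their interactions at 10 µM did not pass (limma, 0 of 2, and 1 of 2 at an unadjusted p under 0.05), beside 0.305% of all genes called. A difference between the backgrounds was thus not shown. With 10 µM on PE, 3 MAP3K and MAP4K genes, 3 phosphatases and 1 ERK gene fell, 2 scaffolds rose and 2 fell, and 1 substrate gene rose and 2 fell. Dusp16 fell by 0.70 ± 0.10 (limma adjusted p = 0.000395) and Jund by 0.92 ± 0.11 (0.000111).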

How the data were processed

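Messenger RNA of 18 libraries was measured in 6 groups of 3, with group and replicate read from the labels. RNA was polyadenylated, per the labels' protocols. Reads were aligned and quantified by the authors with Bowtie2 and Cufflinks on the rn5 build, per the submitters' processing notes, and the values were deposited as FPKM. Versions, annotation, filters and strand handling are not given in the sources used here. A floor of 0.01 FPKM held 27.4% of values. Absolute depth is unknown, so no counting interval is given; steps among rows under 0.2 FPKM put the relative depth of the libraries at 0.833 to 1.11.

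Values were analysed as log2(FPKM + 1) with limma 3.58.1 (variance trend) in R 4.3.3, on rows reaching 1 FPKM in 3 or more libraries, with 6 group means and 12 residual degrees of freedom. This scale understates the change of low genes. P-values were adjusted over the 10478 rows of each of 9 comparisons by the Benjamini-Hochberg method, and the procedure was tested on simulated data. Further work used pandas 2.3.3 and numpy 2.4.6 under Python 3.11.15, with plots by matplotlib 3.10.9.

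The members, the gene lists and the comparisons were chosen with earlier results of these data known. Beyond the members, the text names called genes of each list, drawn from the 4 with the largest absolute change in a comparison, and the 3 genes most correlated with each of the 2 members of widest range. Motifs were chosen after the values were seen. Listed symbols that were not matched in the table were not used here.

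Libraries with the same replicate number varied together: after subtracting group means, their correlation was 0.213 to 0.587 over 45 pairs, beside -0.462 to 0.095 over the other 90, so the numbers pair the samples, though no label says what the number marks. The model has no block, and a block was an alternative. Whether replicates came from separate cultures or animals is not stated, so the p-values reflect only how far these samples spread, which may be technical. Libraries of one group correlated with r from 0.986 to 0.992 and shared at most 2 equal values, so none was counted as a duplicate. Other alternatives were leaving out each library, fitting only the compared groups, quantile or median-ratio scaling, a pseudocount of 0.1, and a filter of 5 FPKM or none.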

Additional observations from a re-analysis of the deposited data

Results flagged for a closer look

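The response of Map2k6 to 50 µM Senexin A differed with and without PE by a test of the difference itself. The interaction was 1.79 on the log2(FPKM + 1) scale (SE 0.37, limma adjusted p = 0.00965). Map2k6 averaged 1.47 ± 0.580 FPKM in PE with 50 µM against 1.30 ± 0.657 in PE, and 1.52 ± 0.608 FPKM at 50 µM alone against 7.03 ± 1.86 in Vehicle (SD, n = 3 each). Leaving out single libraries gave 1.52 to 2.00, and a pseudocount of 0.1 gave 2.39. The libraries of the 3 low groups stood at 0.547 to 2.15 FPKM, near the filter of 1 FPKM. On the log2(FPKM + 1) scale the PE libraries left no room for a further change of -1.67, the one seen at 50 µM without PE. On that scale the level in PE alone could thus give a positive interaction, and its part in the 1.79 was not tested. The test cannot tell this limit apart from a response that depends on PE.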

How the results depend on the processing

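Of 1023 recomputed values of the members, 925 kept direction and call, 21 lost the call, 12 gained one, 65 uncalled values changed sign, and no called value reversed. For list genes, 1713 of 1897 kept direction and call and 184 lost the call. The calls lost or gained among members concern Map2k7 and Mapkapk2 (lost) and Mapk8, Mapk12 and Mapk14 (gained), with adjusted p-values given in the results. Absolute depth is unknown, which limits the reading of Map2k6, Mapk12 and Mapk11.

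With the replicate block, genes called numbered 2761 at 10 µM alone against Vehicle (1696 without it), 2924 at 10 µM on PE (1778), 230 for the interaction at 10 µM (32) and 1690 for that at 50 µM (734). Members called with the block were 2 at 50 µM against 10 µM on PE (1 without), 4 with PE against Vehicle (3) and 3 at 50 µM on PE (2). The additions were Mapk8 and Mapk14, and the block changed no other call of a member. Without the block 41.2%, 30.6% and 56.7% of all genes were called in these comparisons, so the member counts are not read as a result about the cascade. Under quantile normalization members called were 1 at 10 µM alone (2 as reported), beside 2104 of 10478 genes, and 1 at 10 µM on PE (2), beside 1888. They were 4 at 50 µM on PE (2), beside 5898 genes, and 2 at 50 µM against 10 µM on PE (1), beside 4300. Quantile normalization also added Mapk8 with PE against Vehicle (limma adjusted p = 0.0396) and Mapk12 at 50 µM against 10 µM alone (0.0192). At 50 µM alone against Vehicle it lost Map2k7 (0.0595) and gained Mapk14 (0.0363). At 10 µM alone 1 member was called with no filter and 1 with only the compared groups. Without a filter the interaction at 10 µM called 20 genes (32). Beyond the loss of a library or the wider row set, the cause of these shifts was not tested.

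Leaving out 1 library at a time gave 948 to 1457 genes and 1 member at 10 µM alone against Vehicle, and 1042 to 1575 genes and 1 member at 10 µM on PE. With PE it gave 2162 to 2846 genes and 3 members. At 50 µM against 10 µM on PE it gave 3600 to 3999 genes and 1 to 2 members (2 without replicate 3 of PE with 50 µM). For the interactions it gave 13 to 34 genes at 10 µM and 392 to 921 genes at 50 µM.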
